A study of Mus musculus with 20 samples.

Results

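The oxidative phosphorylation genes of the mouse arcuate nucleus (ARC) were examined in both datasets, with the genes carried by mitochondrial DNA set against those carried in the nucleus. Members were picked by a rule on gene symbols alone, and the rule was chosen with earlier results of these data known. The rule took the mitochondrial genes of complexes I, III, IV and V, and left out pseudogenes. Of the nuclear genes it took Sdha to Sdhd and those whose symbols begin with Uqcr, Cox4 to Cox8 or Atp5. It also took those that begin with Nduf, then a, b, c, s or v, then a number. It gave 97 of the 22048 genes in the count tables, 13 mitochondrial encoded and 84 nuclear encoded. Of the nuclear members, 35 belong to complex I, 4 to complex II, 8 to complex III, 20 to complex IV and 17 to complex V. The symbol rule also caught Atp5s and Atp5sl, which are factors rather than ATP synthase subunits but were counted with complex V. The GENCODE M21 annotation names Atp5sl as Dmac2. The rule missed Cyc1, a complex III subunit that was read with the assembly factors and carriers.

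Male C57BL6/J mice, 10 weeks old, drank either vehicle (1% ethanol) or corticosterone (Cort, 75 µg/ml). Treatment lasted 2 days in one dataset and 4 weeks in the other, and each dataset held 5 samples per treatment. The labels name no transgene or deletion in any group. The 4 week mice of both treatments were also fasted for 16 h and refed for 24 h before cull, which the 2 day mice were not. The ARC was cut out by laser from frozen sections and the RNA was amplified before sequencing. Section thickness, slides, laser system and sequencer differed between the 2 day and 4 week datasets. An effect of treatment length, on levels or on the response to Cort, therefore cannot be told apart from these steps or from the fast and refeeding.

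The respiratory chain of the inner mitochondrial membrane passes electrons from NADH (complex I) and succinate (complex II) through complex III to oxygen at complex IV, and ATP synthase (complex V) uses the proton gradient that results. Complex II is built from nuclear genes alone, whereas complexes I, III, IV and V combine nuclear subunits, made in the cytosol and imported, with a few core subunits made inside the organelle. Mitochondrial DNA is transcribed from both strands as long precursors that are cut into single messages, so its genes share a promoter region and are not independent of each other. Neurons depend on this pathway for most of their ATP, and AgRP and POMC neurons of the ARC adjust it to feeding state.

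Total counts were 2487063 to 5748223 per sample in the 2 day dataset and 1065776 to 5196364 in the 4 week dataset. The arcuate neuropeptides Agrp, Npy and Pomc were detected in every sample, and their summed level in the samples kept, in counts scaled to library size (CPM), lay between 664 and 1622 in the 2 day dataset and between 288 and 1044 in the 4 week dataset. Following the study, 3 samples per dataset that stood apart in its principal component plots were left out of the tests (at 2 days vehicle C07 and C09 and Cort C08, at 4 weeks vehicle C01 and C05 and Cort C06). The tests compared the remaining 3 vehicle samples with 4 Cort samples. The samples left out also differed in the genes described here, and their values are given with the others. In such bulk samples, fewer cells of a type and less RNA per cell cannot be told apart.

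Whether a read can be given to a mitochondrial gene depends on its sequence, because fragments of mitochondrial DNA have been copied into the nuclear genome. The sequence of each member was therefore cut into every possible stretch of 50 bases, the length of the reads, and each stretch was looked for in all other annotated transcripts (GENCODE M21, GRCm38). The mitochondrial members fell into distinct classes. No stretch of mt-Nd1, a core subunit of complex I (chrM:2751-3707), occurred elsewhere. All stretches of mt-Co2, a core subunit of complex IV (chrM:7013-7696), also occurred in other transcripts, among them Gm28661, a nuclear pseudogene on chromosome 1. The first 60 bases of these transcripts show the contrast, with shared bases in capitals.
mt-Nd1: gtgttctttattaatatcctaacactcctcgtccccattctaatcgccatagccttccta
mt-Co2: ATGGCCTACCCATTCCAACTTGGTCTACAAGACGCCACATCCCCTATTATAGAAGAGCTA
Gm28661: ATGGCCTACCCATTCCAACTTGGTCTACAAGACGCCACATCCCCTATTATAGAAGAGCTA

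Over the 681 bases that mt-Co2 and Gm28661 have in common there were 0 mismatches. The same held for mt-Atp6 against Gm10925 over 678 bases and for mt-Co3 against Gm28437 over 783 bases. Other members were shared in part. In mt-Nd4 (chrM:10167-11544) the part shared with the pseudogene Gm28439 ran from base 1 to base 876 of 1378. In mt-Co1 (chrM:5328-6872) the part shared with Gm29216 ran from base 1067 to the end at base 1545, and 411 stretches, in part the same ones, were found in another pseudogene, Gm13340. The edges of the parts shared with Gm28439 and Gm29216 are printed, with the bases shared with that pseudogene in capitals, from base 827 to 926 of mt-Nd4 and from base 1017 to 1116 of mt-Co1.
mt-Nd4: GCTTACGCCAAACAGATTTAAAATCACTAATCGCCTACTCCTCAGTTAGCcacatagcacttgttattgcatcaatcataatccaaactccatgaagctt
mt-Co1: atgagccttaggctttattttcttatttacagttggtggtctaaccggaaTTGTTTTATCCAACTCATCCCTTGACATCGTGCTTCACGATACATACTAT

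The counts followed these classes. The 5 members with nearly all stretches shared (mt-Co2 100%, mt-Co3 99.9%, mt-Atp6 99.5%, mt-Nd4l 98.8% and mt-Nd3 98.0%) had at most 482 counts in any sample. The members mt-Nd1, mt-Nd2, mt-Nd4, mt-Nd5, mt-Nd6, mt-Cytb and mt-Co1, of which at most 62.2% of stretches were shared, had 728 to 129911 counts. The exception was mt-Atp8, a small ATP synthase subunit, with only 0 to 19 counts although no stretch occurred in another annotated transcript. Nuclear copies outside annotated transcripts were not looked for. The pseudogenes of the neighbouring mt-Co2 and mt-Atp6 lie on chromosome 1 at 24614885-24615565 and 24613974-24614651, and the bases between them were not searched. The 204 bases of mt-Atp8 also overlap mt-Atp6 by 43 bases. How the counting treated reads in overlaps or reads that match several places is not given in the sources used here. Together the 6 low members made up 0.0035% to 0.048% of the counts of a sample. Their values are therefore read only as counts, and what follows rests on the other 7, called the readable members. A further overlap of 14 bases joins mt-Nd5 and mt-Nd6, which lie on opposite strands. The library kit does not keep strand, so reads in those bases could not be told apart. For the same reason, RNA of the opposite strand along the rest of a gene would be counted with that gene. Values of mt-Nd6 may therefore include such RNA over its whole length. Among the nuclear members sharing was lower, with a median of 1.13% of stretches, no shared stretch in 35 of 84, and more than 25% shared in 5, up to 41.6% in Atp5o.

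**Figure D1:**
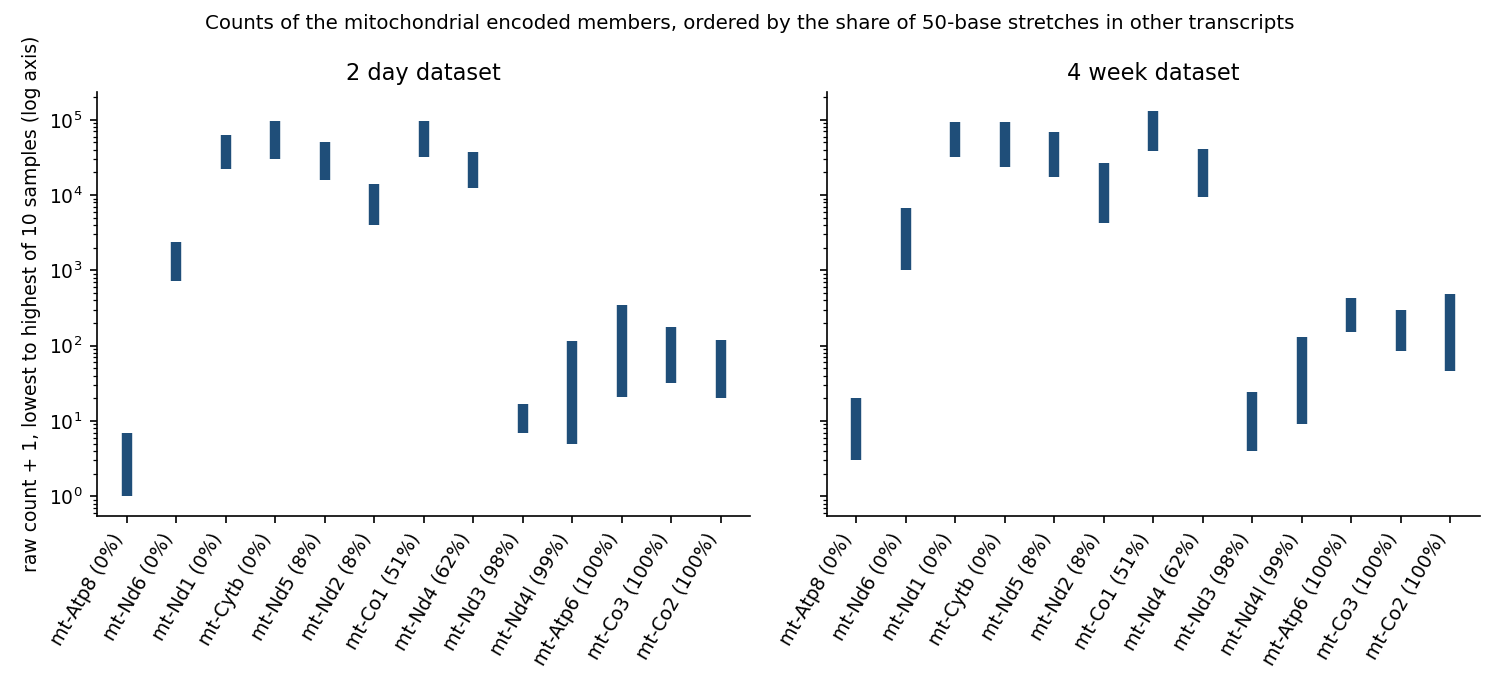
Raw counts of the 13 mitochondrial encoded members in the 2 day (left) and 4 week (right) datasets, on a log axis with 1 added; each bar runs from the lowest to the highest of 10 samples, and the percentage after each name is the share of its 50-base stretches found in other annotated transcripts. The 7 readable members had 728 to 129911 counts, whereas the 5 members shared at 98.0% or more, and mt-Atp8, did not pass 482.

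Per kilobase of exon, mt-Cytb, the cytochrome b of complex III, had the highest level at 2 days, 9856 ± 659 CPM per kb in the vehicle samples (SD, n = 3). It was followed by mt-Nd1 at 8826 ± 800, mt-Co1 at 7281 ± 333, mt-Nd5 at 3586 ± 277, mt-Nd4 at 3413 ± 369, mt-Nd2 at 1579.8 ± 231 and mt-Nd6 at 545 ± 51.5. The ranges of 1 SD overlapped between mt-Cytb and mt-Nd1 and between mt-Nd5 and mt-Nd4. Within each of the 3 vehicle samples, however, mt-Cytb was above mt-Nd1 and mt-Nd5 above mt-Nd4. The lowest of the 7, mt-Nd6, is the single subunit gene on the other strand of the molecule, and its level may include RNA of the opposite strand. Dividing by the length of unshared sequence instead put mt-Co1 first, at 15389 CPM per kb, and raised mt-Nd4 to 9370.0, next to mt-Nd1 at 9302. At 4 weeks mt-Nd1 (16959 ± 1621), mt-Cytb (15539.5 ± 1071) and mt-Co1 (14876 ± 137 CPM per kb) were again the 3 highest, and mt-Nd6, at 2084 ± 274, was the lowest. The nuclear members lay lower, the highest being Atp5b, the catalytic beta subunit of ATP synthase, with 471 ± 64.1 CPM per kb at 2 days and 405 ± 41.1 at 4 weeks. For nuclear members the length takes in the exons of every annotated isoform, for example 4912 bases for Atp5g1 and 702 for Cox6a1. Their ranks per kb therefore depend on the annotation.

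As a share of all counts, the mitochondrial members took 4.10% to 6.88% in the 10 samples of the 2 day dataset and 8.28% to 11.9% in those of the 4 week dataset. The nuclear members took 1.20% to 1.78% at 2 days and 0.627% to 0.979% at 4 weeks. Neither range overlapped between the datasets, and the ratio of mitochondrial to nuclear counts was 2.92 to 4.88 at 2 days and 9.42 to 18.9 at 4 weeks. Counting error was small beside these differences, since the widest 95% Wilson interval of a share reached 0.0614 percentage points to either side. Such intervals cover counting error only, because amplified reads are not independent molecules.

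Within the 2 day dataset, the mitochondrial share of the kept samples was 4.48% ± 0.287 in vehicle (SD, n = 3) and 4.95% ± 0.892 in Cort (n = 4). The nuclear share was 1.31% ± 0.0719 in vehicle and 1.36% ± 0.107 in Cort. Within the 4 week dataset the mitochondrial share was 8.66% ± 0.495 in vehicle (n = 3) and 10.4% ± 1.45 in Cort (n = 4), with the Cort sample C07, at 8.29%, inside the vehicle range of 8.28% to 9.22%. The nuclear share was 0.873% ± 0.114 in vehicle and 0.823% ± 0.0443 in Cort. The vehicle sample C01, one of those left out at 4 weeks, had the highest mitochondrial share of all samples (11.9%) and the lowest nuclear share (0.627%). The 3 samples left out at 2 days had the 3 highest nuclear shares, from 1.63% to 1.78%.

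**Figure D2:**
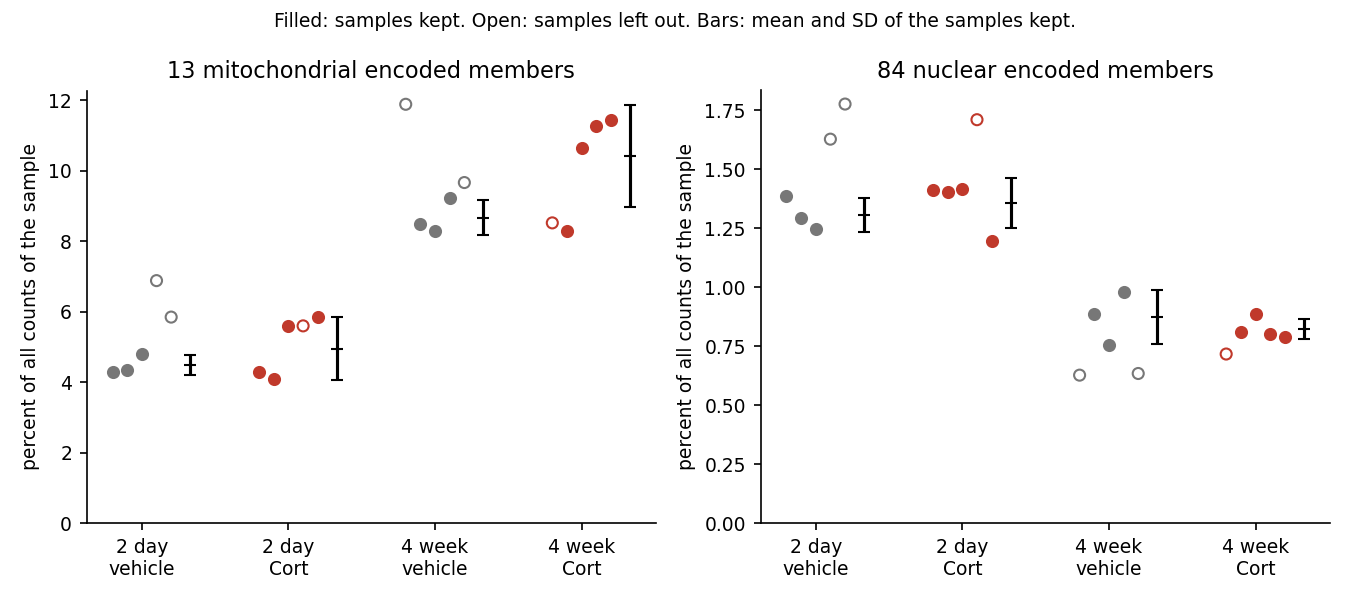
Share of all counts of a sample, in percent, taken by the 13 mitochondrial (left) and 84 nuclear (right) members in each group; filled points are the samples kept, open points those left out, and bars give the mean and SD of the samples kept. Between the datasets the shares did not overlap, and at 4 weeks an open vehicle point at 11.9% lies above all Cort samples.

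After 2 days of Cort none of the 90 members that passed the filter on low counts was called at Padj below 0.1 by edgeR, against a background of 0.065% of 12309 genes. At an unadjusted P below 0.01 edgeR gave 0 members, against 1.49% of all genes tested, and at P below 0.05 it gave 3, all higher in Cort, where 3.14% of all genes passed in that direction. DESeq2 also called 0, as did voom (limma) with quality weights. The median log2 fold change was 0.10 over the 12 mitochondrial members tested and 0.11 over the 78 nuclear members, beside 0.02 over all genes. With all 10 samples these medians were −0.07 and −0.05 by edgeR, and 0.03 and 0.07 by voom with quality weights. Their direction thus rests on how the samples left out are treated.

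The mitochondrial member with the lowest P at 2 days was mt-Co1, the catalytic core of complex IV. Its level was 11126, 10808 and 11813 CPM in the vehicle samples and 10894, 10949, 15254 and 15146 CPM in the Cort samples. Of the Cort samples, C06 and C10 were above the vehicle range and C01 and C03 inside it. The log2 fold change was 0.21 (SE 0.10, edgeR Padj = 0.82). In each of the other readable members C06 and C10 were likewise above the vehicle range and C01 and C03 inside or below it, with log2 fold changes of 0.08 to 0.18. Cell type markers also stood apart between the kept groups at 2 days, where the sum over 3 of 3 arcuate neuropeptide genes was 664 to 1025 CPM in vehicle and 1202 to 1622 CPM in Cort. The sum over 4 of 4 oligodendrocyte markers was 222 to 263 CPM in vehicle and 305 to 442 CPM in Cort. The vehicle samples left out, C07 and C09, had 1614 and 1384 CPM of the neuropeptide genes. Their oligodendrocyte sums were 530 and 363 CPM, so both sums were inside or above the kept Cort range. The Cort sample left out, C08, had 2311 and 601 CPM. The part of these markers in the mitochondrial values was not tested.

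After 4 weeks of Cort the 7 readable mitochondrial members were all higher in the kept Cort samples, by 1.21-fold to 1.63-fold. By edgeR mt-Co1 was the 1 member of 88 tested that was called at Padj below 0.1, against a background of 0.0446% of 11211 genes. At P below 0.01 there were 5 members, all mitochondrial and all higher in Cort, where 0.633% of all genes tested passed in that direction. At P below 0.05 there were 8 members higher in Cort, the 7 readable mitochondrial ones and Atp5g1, beside 2.95% of all genes in that direction, and 2 lower. The median log2 fold change was 0.31 over the 12 mitochondrial members tested, 0.36 over the 7 readable members and −0.08 over the 76 nuclear members, beside 0.04 over all genes. With all 10 samples included the medians were 0.12 over the mitochondrial and 0.058 over the nuclear members. The nuclear median was also above 0 with voom quality weights (0.0034) and without the vehicle sample C04 (0.033), so its sign rests on the samples used. The genes of mitochondrial DNA share their precursors and are not separate pieces of evidence.

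The level of mt-Co1 was 23223, 22900.1 and 22825 CPM in the vehicle samples kept. In the Cort samples kept it was 26195, 29586, 31448 and 30166 CPM. These groups did not overlap, and the log2 fold change was 0.36 (SE 0.063, edgeR Padj = 0.097). In the samples left out, however, mt-Co1 was at 35838 and 31469 CPM in vehicle C01 and C05, above every kept sample of both groups, and at 28947 CPM in Cort C06. With all 10 samples the log2 fold change was 0.10 (edgeR Padj = 0.99).

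The largest difference among the readable members was in mt-Nd2, a membrane subunit of the proton-pumping arm of complex I. Its level was 3220.5, 3039.8 and 3482 CPM in the vehicle samples and 4143, 6232, 5219 and 5568 CPM in the Cort samples, without overlap. The log2 fold change was 0.71 (SE 0.13, edgeR Padj = 0.11). The vehicle samples left out had 3945 and 4152 CPM and the Cort sample left out 4024 CPM, and with all 10 samples the log2 fold change was 0.50 (edgeR Padj = 0.97). Among the readable members mt-Nd2 thus kept the largest difference with all samples included.

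For mt-Nd4, another membrane subunit of complex I, the vehicle samples had 7404, 6934 and 7512 CPM and the Cort samples 8186, 9384, 9930.5 and 10439.9 CPM. The log2 fold change was 0.38 (SE 0.094, edgeR Padj = 0.89). For mt-Nd6, also of complex I, the counts may include RNA of the opposite strand. Its levels were 980.2, 1020.1 and 1244 CPM in vehicle and 1254, 1599, 1398 and 1693 CPM in Cort. The log2 fold change was 0.46 (SE 0.17, edgeR Padj = 0.99). In both genes the kept groups did not overlap, as in 4 of the 12 mitochondrial members tested, all higher in Cort, against 3.11% of all genes in that direction. Over all 10 samples no mitochondrial member was free of overlap, against 0.901% of all genes.

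The remaining readable members overlapped between the groups. mt-Nd1 had 14997 to 17971 CPM in vehicle and 17274 to 21856 CPM in Cort, with a log2 fold change of 0.31 (SE 0.084, edgeR Padj = 0.89). With all 10 samples its log2 fold change was −0.02, since the vehicle sample C01 had 30251 CPM, the highest of all. mt-Cytb had 16549.9 to 18999.6 CPM in vehicle and 18224 to 22955 CPM in Cort, with a log2 fold change of 0.27 (SE 0.080, edgeR Padj = 0.89). mt-Nd5 had 11397 to 13074 CPM in vehicle and 11486 to 17172 CPM in Cort, with a log2 fold change of 0.30 (SE 0.11, edgeR Padj = 0.99). In each of these genes C07 was the lowest of the kept Cort samples. Without C07 edgeR called 6 members (mt-Nd1, mt-Nd2, mt-Nd4, mt-Nd5, mt-Cytb and mt-Co1), against a background of 0.0922% of genes, and without any 1 of the other kept samples it called 0. DESeq2 called 0 members and 0.449% of genes, edgeR with all 10 samples 0 members and 0.00962%, and voom with quality weights over those 10 samples 3 members (mt-Nd2, mt-Cytb and mt-Co1) and 0.0577%. Without a filter on low counts (0.0583% of genes), and with at least 10 counts required throughout (0.0833%), edgeR called mt-Nd2 alone.

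**Figure D3:**
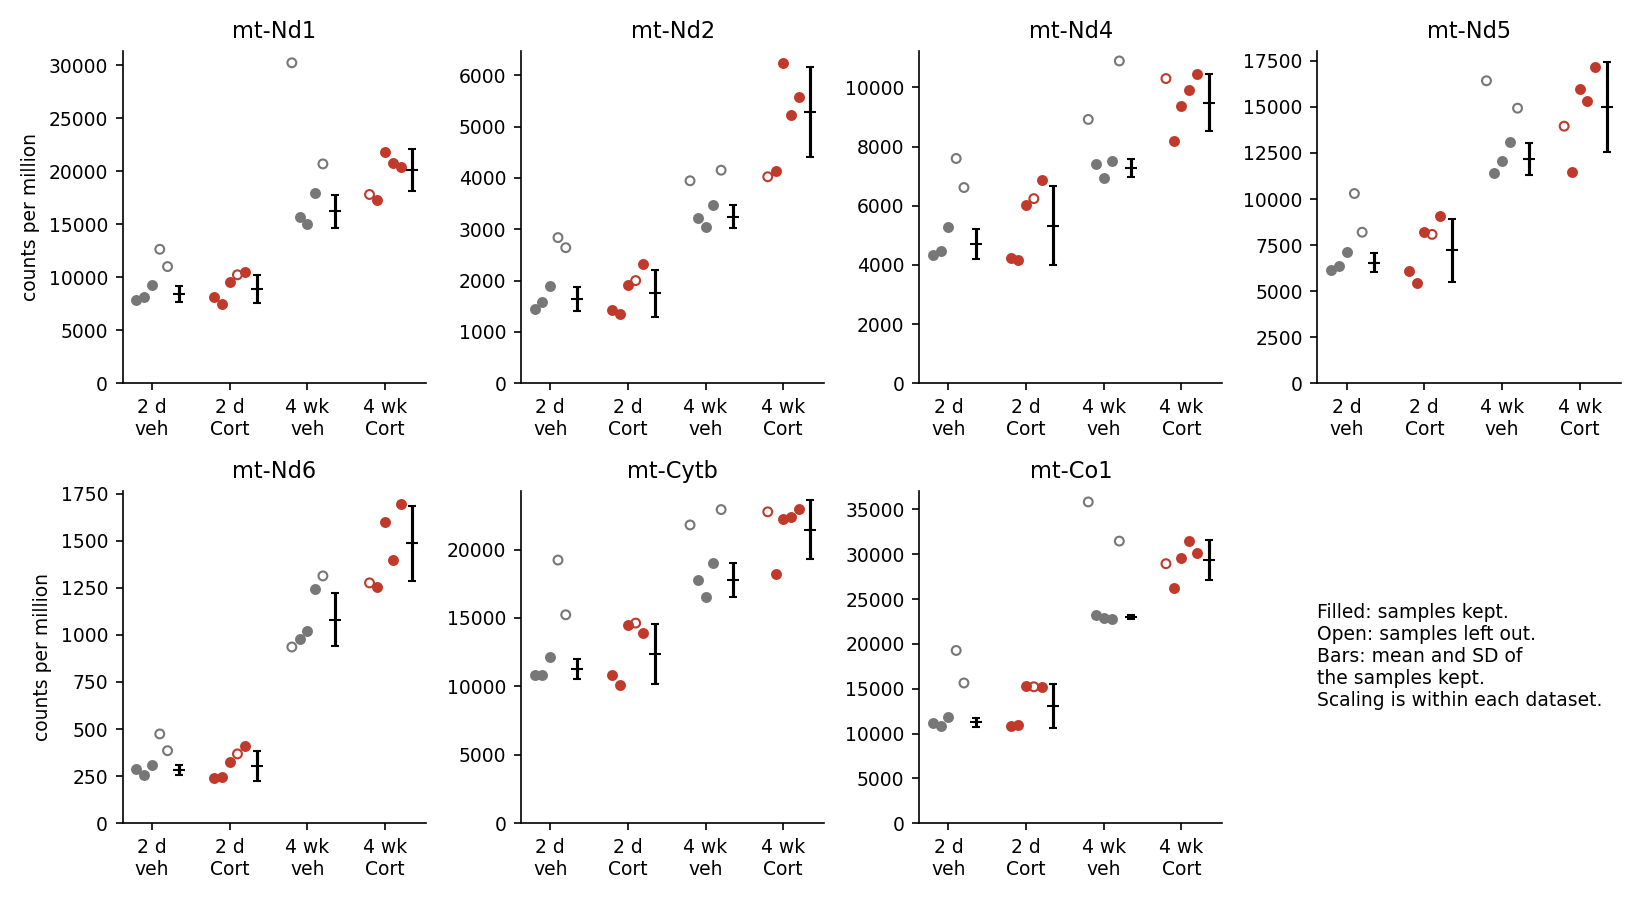
Level of the 7 readable mitochondrial members in CPM (scaled within each dataset) in each sample of the 4 groups; filled points are kept samples, open points those left out, and bars the mean and SD of the kept samples. At 4 weeks the filled vehicle points of mt-Co1, mt-Nd2, mt-Nd4 and mt-Nd6 lie below all filled Cort points, whereas in each of the 7 an open vehicle point lies within or above the range of the filled Cort points.

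**Figure D4:**
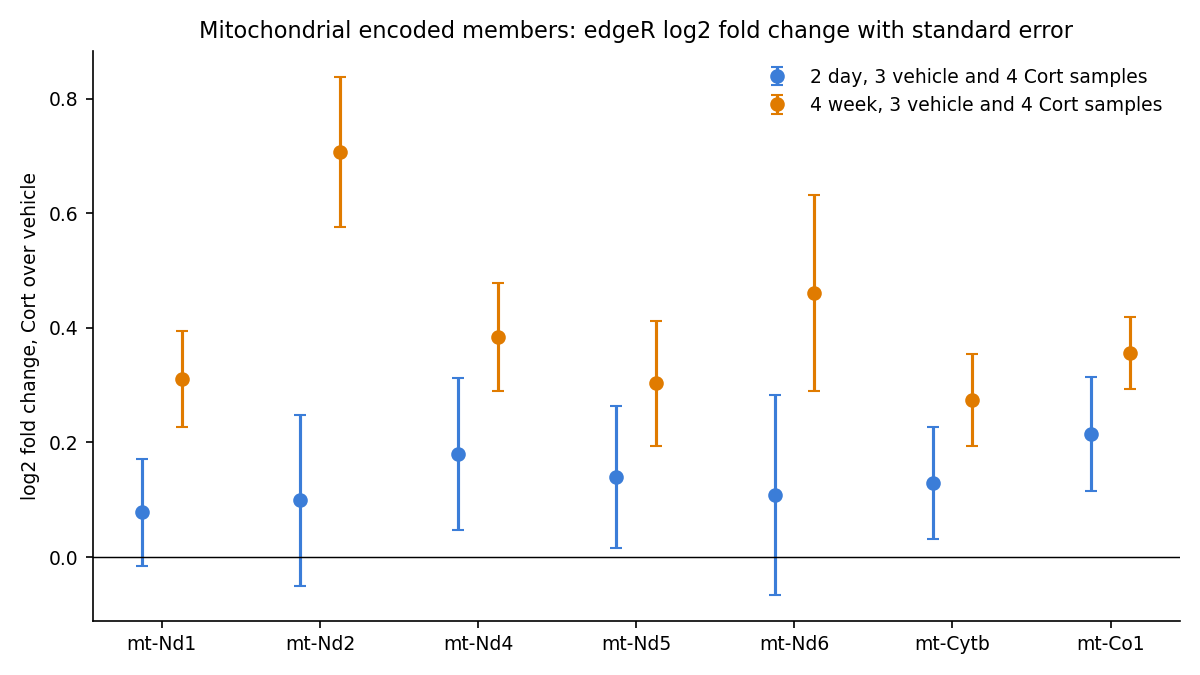
Log2 fold change of Cort over vehicle for the 7 readable mitochondrial members at 2 days and at 4 weeks, from edgeR on 3 vehicle and 4 Cort samples each; error bars are standard errors. The 4 week values, from 0.27 to 0.71, lie above the 2 day values, from 0.08 to 0.21, and the ranges of 1 standard error overlap in mt-Nd4, mt-Nd5, mt-Cytb and mt-Co1.

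Summed levels of some cell type markers stood apart between the kept groups at 4 weeks, but not once the samples left out were included. The summed level of 3 of 3 arcuate neuropeptide genes was 666 to 1044 CPM in the kept vehicle samples and 288 to 596 CPM in the kept Cort samples. The sum over the 4 general neuron markers (Snap25, Syt1, Rbfox3 and Stmn2) was 2471 to 2618 CPM in vehicle and 2758 to 3109 CPM in Cort. That over the 4 astrocyte markers was 2254 to 2328 and 2390 to 3554 CPM. Single genes of these 2 lists did not all move alike. The log2 fold change was above 0 in 3 neuron markers and below 0 in 1, and above 0 in 2 astrocyte markers and below 0 in 2. None of these markers was at 0 in all samples. The oligodendrocyte, microglia, endothelial and tanycyte markers overlapped between the kept groups. Of the samples left out, vehicle C01 and C05 had 207 and 303 CPM of the neuropeptide genes, below or inside the kept Cort range. C05 had 3259 CPM of the neuron and 3594 CPM of the astrocyte markers, above every kept Cort sample, and C01 had 2351 and 1548 CPM. Cort C06 had 580, 3217 and 3621 CPM of the 3 lists. The part of the marker shifts in the mitochondrial values was not tested.

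Whether the response to Cort differed between the 2 day and 4 week datasets was tested as an interaction over the 14 kept samples. Length of treatment cannot be told apart here from the fast and refeeding of the 4 week mice, or from section thickness, slides, laser system and sequencer. No member of 91 tested was called by edgeR, against a background of 0.0157% of 12777 genes, and 1 member, Atp5j2, had P below 0.01, beside 1.35% of all genes. At P below 0.05 there were 1 member with a higher and 3 with a lower fold change at 4 weeks, beside 6.49% of all genes. Voom with quality weights called 0 and DESeq2 called 1, Atp5j2. In all 7 readable mitochondrial members the 4 week fold change was the higher, by 0.15 to 0.61 on the log2 scale, and mt-Nd2 had the lowest P (difference 0.61, SE 0.23, edgeR Padj = 0.71).

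The lowest P of the interaction was that of Atp5j2, the f subunit of the membrane part of ATP synthase (chr5:145183698-145192062). At 2 days its level was 104, 98.6 and 101 CPM in the vehicle samples and 147, 129, 151 and 118 CPM in the Cort samples, higher in Cort without overlap (log2 fold change 0.43, SE 0.18, edgeR Padj = 0.79). At 4 weeks it was 72.9, 77.6 and 84.4 CPM in vehicle and 26.4, 53.4, 16.5 and 37.5 CPM in Cort, lower in Cort without overlap (log2 fold change −1.22, SE 0.57, edgeR Padj = 0.99). The difference between the 2 was −1.64 (SE 0.49, edgeR Padj = 0.71), and DESeq2 gave −1.66 (Padj = 0.073). With all 10 samples the 2 day vehicle samples C07 and C09, at 188 and 173 CPM, stood above most Cort samples, and the difference was −1.25 (edgeR Padj = 0.72). The 4 week groups of Atp5j2 overlapped as well once all 10 samples were included. The vehicle sample C05, left out, had 119 of 2608170 raw counts, a lower level than the Cort sample C08 with 227 of 4286426.

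Of the nuclear members none was called at either time. In the 4 week data the standard error of a nuclear member was a median of 0.55 on the log2 scale, against 0.20 at 2 days, so that smaller differences could be resolved at 2 days. At P below 0.05 there were 2 nuclear members at 2 days, both higher in Cort, beside 3.14% of all genes in that direction. At 4 weeks there were 1 higher and 2 lower of 76, beside 4.91% of all genes in both directions, so neither count stood above the background. Without overlap between the kept groups were 4 of 78 nuclear members at 2 days and 6 of 76 at 4 weeks, both beside 6.51% of all genes. Over all 10 samples 0 members were free of overlap at 2 days, beside 0.804% of all genes.

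Complex I, the NADH dehydrogenase, had 35 nuclear members tested in each dataset, with a median log2 fold change of 0.09 at 2 days and −0.17 at 4 weeks. Of these, 24 were above 0 at 2 days and 14 at 4 weeks. Per kilobase of all annotated exons, Ndufc2 of the membrane arm had the highest vehicle level at 2 days (245 ± 36.8 CPM per kb, n = 3). At 4 weeks the highest was Ndufb9, also of the membrane arm (207 ± 37.7 CPM per kb). Ndufb9 (chr15:58933756-58939488) had 234, 169 and 238 CPM in the 4 week vehicle samples and 101, 158, 114 and 122 CPM in the Cort samples. The log2 fold change was −0.79 (SE 0.33, edgeR Padj = 0.99). The samples left out continued the division, with 197 and 297 CPM in vehicle and 131 CPM in Cort, and Ndufb9 was the 1 nuclear member of 76 whose 5 vehicle and 5 Cort samples did not overlap, beside 0.901% of all genes. At 2 days its log2 fold change was 0.03 (SE 0.18).

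The neighbouring subunit Ndufb10 had 77.2, 92.4 and 68.6 CPM in the 2 day vehicle samples and 110, 85.5, 130 and 109 CPM in the Cort samples (log2 fold change 0.45, SE 0.22, edgeR Padj = 0.83). At 4 weeks it had 60.4, 91.7 and 127 CPM in vehicle and 47.2, 59.5, 50.1 and 50.9 CPM in Cort (log2 fold change −0.84, SE 0.48, edgeR Padj = 0.99). The samples left out at 4 weeks had 32.8 and 94.7 CPM in vehicle and 31.3 CPM in Cort. The 2 day vehicle samples left out had 130 and 202 CPM, above most Cort samples, and with all 10 samples the 2 day log2 fold change was 0.04. Ndufv3, a subunit of the matrix arm, had the lowest log2 fold change of complex I at 4 weeks, −0.86 (SE 0.65, edgeR Padj = 0.99).

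Complex II, the succinate dehydrogenase that also serves the tricarboxylic acid cycle, had 4 members, with a median log2 fold change of 0.13 at 2 days and 0.45 at 4 weeks. The 4 week median lies between Sdhb at 0.18 (SE 0.55) and Sdhc at 0.73 (SE 0.44), and Sdhd had 0.76 (SE 0.49). Sdhc had 2579 raw counts in the Cort sample C07, of 5196364 in all, and 787 in C08, of 4286426. The Cort samples C09 and C10 had 233 and 509, and C06, left out, had 26. The 4 week Sdhc value thus leans on C07. Its highest member, the flavoprotein Sdha, had 171 ± 19.4 CPM per kb at 2 days and 116 ± 20.9 at 4 weeks, and log2 fold changes of −0.09 (SE 0.13) and −0.02 (SE 0.25). Complex III, the cytochrome bc1 complex, had 8 nuclear members with medians of 0.22 and −0.13. Its highest level was that of Uqcr10 at 2 days (261 ± 37.9 CPM per kb) and of the hinge protein Uqcrh at 4 weeks (110.4 ± 8.70 CPM per kb). Uqcrc1, a core protein, was among the 3 lowest nuclear members at 2 days, with a log2 fold change of −0.32 (SE 0.19, edgeR Padj = 0.89).

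Complex IV, cytochrome c oxidase, had 15 nuclear members tested at 2 days and 14 at 4 weeks, with medians of 0.09 and −0.08. Several of its subunits come in alternative forms that are known to differ between tissues, and the ARC used the widely expressed forms. Per kilobase, Cox4i1 had 406 ± 74.8 CPM per kb in the 2 day vehicle samples (n = 3), against 0.707 ± 0.800 for Cox4i2, known from lung. Cox6a1 had 468 ± 37.1 CPM per kb, against 22.5 ± 8.81 for Cox6a2, the heart and skeletal muscle form. Cox6b1 had 328.5 ± 32.9 CPM per kb, against 6.40 ± 8.48 for the testis form Cox6b2. These widely expressed forms were each far above their counterparts. Cox8a had 430.1 ± 73.9 CPM per kb, whereas Cox8b, a muscle form, reached at most 1 count and Cox8c, a testis form, 0 counts in any 2 day sample, where a count of 0 allows for up to 3 counts.

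The same held for the other pairs. Cox7a2 had 150.4 ± 11.6 CPM per kb and the related Cox7a2l, which takes part in joining complexes III and IV into supercomplexes, 109 ± 4.40, against 3.18 ± 4.49 for the muscle form Cox7a1. Cox7b had 153 ± 3.30 CPM per kb, against 0.285 ± 0.249 for Cox7b2. Ndufa4, once assigned to complex I and now known as a subunit of complex IV, had 143 ± 14.7 CPM per kb, against 4.20 ± 1.41 for Ndufa4l2. At 4 weeks the widely expressed form was again the higher in each pair, for example Cox4i1 at 142 ± 35.8 CPM per kb, and Cox6a1 at 221 ± 18.2 against Cox6a2 at 3.69 ± 2.39. In that dataset Cox4i2 was at 0 counts in every kept sample and reached 95 counts in the Cort sample left out. None of these forms was called in either dataset, and log2 fold changes of the widely expressed ones ran from −0.05 (Cox7b) to 0.20 (Cox8a) at 2 days and from −0.73 (Cox6b1) to 0.13 (Cox4i1) at 4 weeks. The lowest nuclear value at 2 days, Cox6b2 at −1.56 (SE 1.24), and the second highest at 4 weeks, Cox6a2 at 1.00 (SE 1.52), came from forms with few counts. Cox7c, which had 12.4 ± 3.62 CPM, was the highest nuclear member at 2 days with a log2 fold change of 0.46 (SE 0.51). Of its stretches 22.1% also occur in other transcripts.

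Complex V, ATP synthase, had 16 nuclear members tested at 2 days and 15 at 4 weeks, with medians of 0.10 and −0.05. Its catalytic Atp5b had 1996 ± 272 CPM in vehicle and 1895 ± 94.5 CPM in Cort at 2 days (log2 fold change −0.08, SE 0.099). At 4 weeks it had 1717 ± 174 and 1893 ± 195 CPM (log2 fold change 0.14, SE 0.15). The c ring, through which protons turn the enzyme, is encoded by a set of genes for the same mature protein. In the 2 day vehicle samples Atp5g3 had 116 ± 20.2 CPM per kb, Atp5g1 12.4 ± 2.69 and Atp5g2 1.41 ± 1.40 CPM per kb, and this order was the same at 4 weeks. Of the stretches of Atp5g2 38.3% also occur in other transcripts, of Atp5g1 11.1% and of Atp5g3 none. The part of this sharing in the order was not tested.

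Atp5g1 (chr11:96068852-96075670) had the largest log2 fold change of the nuclear members at 4 weeks. Its level was 43.2, 14.1 and 30.4 CPM in vehicle and 138, 75.2, 38.2 and 75.6 CPM in Cort, overlapping by 1 Cort sample (log2 fold change 1.49, SE 0.62, edgeR Padj = 0.99). The vehicle samples left out were lower still, at 2.81 and 9.30 CPM, and the Cort sample left out had 73.2 CPM, so that the log2 fold change with all 10 samples was 1.99 (edgeR Padj = 0.97). At 2 days it was 0.41 (SE 0.25, edgeR Padj = 0.88). Of its stretches 11.1% occur in other transcripts. Of the factors counted with complex V, Atp5s had a log2 fold change of 0.98 (SE 0.84) at 4 weeks, and Atp5sl −0.52 (SE 0.42) at 2 days.

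**Figure D5:**
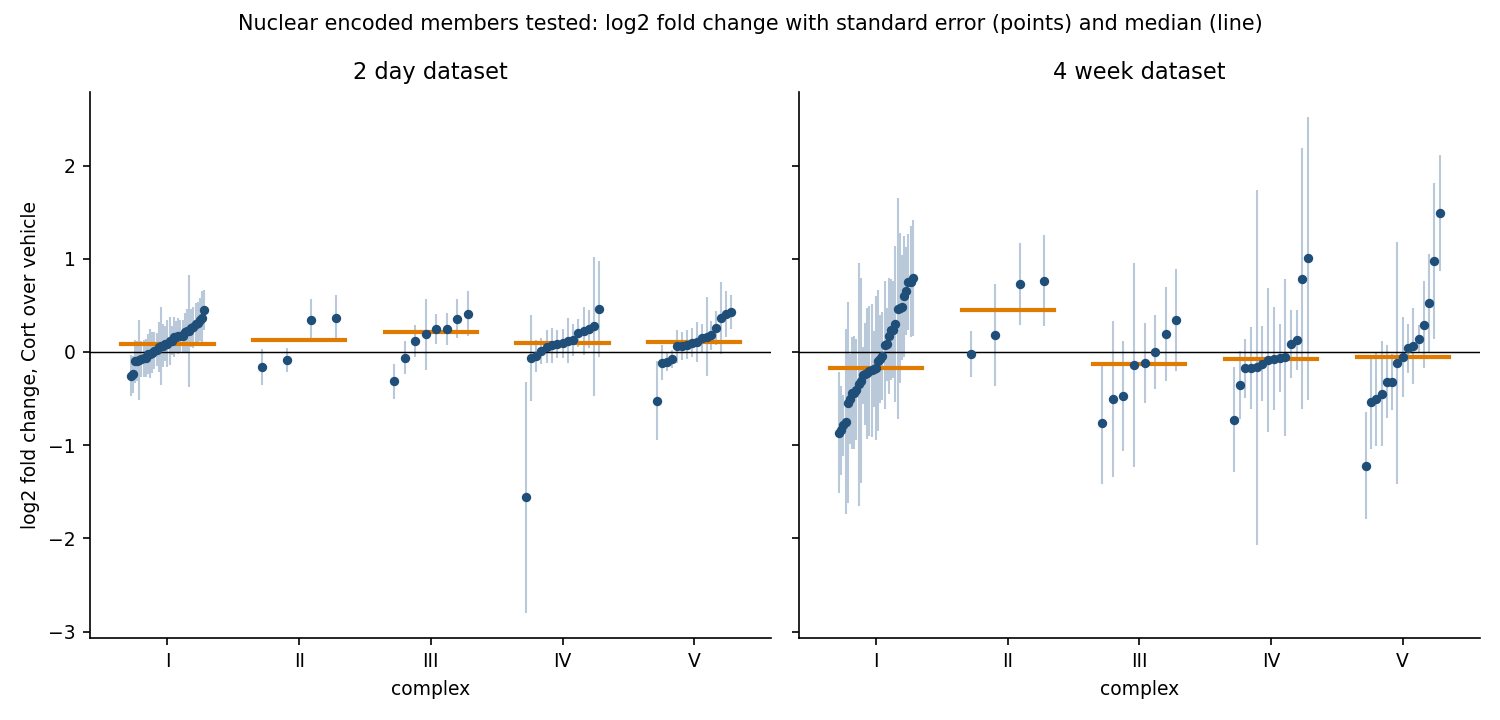
Log2 fold change of Cort over vehicle for the nuclear encoded members tested, by complex and ordered within it, at 2 days (left) and 4 weeks (right); error bars are edgeR standard errors and orange lines the medians. The medians at 2 days lie between 0.09 and 0.22, and those at 4 weeks between −0.17 and 0.45 with wider errors. The 0.45 is that of complex II, from 4 members.

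Genes that build or govern the respiratory chain were read from lists. Of the assembly factors and carriers, 46 were tested at 2 days and 42 at 4 weeks, and none was called by edgeR; 1 reached P below 0.05 at 2 days and 2 at 4 weeks, all higher in Cort, beside 3.14% and 2.95% of all genes in that direction. The lowest P was that of Cox14, which takes part in complex IV assembly, at 46.9 ± 6.02 CPM in 2 day vehicle and 77.9 ± 13.1 CPM in Cort (log2 fold change 0.73, SE 0.25, edgeR Padj = 0.64). The vehicle samples left out had 121 and 75.9 CPM of Cox14, inside or above the Cort range. Cycs, the electron carrier cytochrome c, had log2 fold changes of 0.30 (SE 0.73) at 2 days and 3.03 (SE 1.69) at 4 weeks, from 0.823 ± 1.06 CPM in 4 week vehicle and 7.12 ± 4.68 CPM in Cort, and the vehicle sample C05 had 17.3 CPM.

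Of the genes for transcription, replication and processing of mitochondrial DNA, 20 were tested at 2 days and 17 at 4 weeks, with none called and none at P below 0.05. Tfam, which packages mitochondrial DNA and starts its transcription, had log2 fold changes of −0.11 (SE 0.39) and −0.15 (SE 1.16). Of 11 regulators of mitochondrial biogenesis tested at each time, none was called, and 2 reached P below 0.05 at 4 weeks, both higher in Cort, beside 2.95% of all genes in that direction. These were the ETS factor Gabpa, with a log2 fold change of 1.18 (SE 0.50, edgeR Padj = 0.99), and Ppargc1a (PGC-1 alpha, a coactivator of mitochondrial genes), with 1.45 (SE 0.66, edgeR Padj = 0.99). Ppargc1a had 50.9, 11.3 and 128 CPM in the 4 week vehicle samples and 350, 126, 128.5 and 85.0 CPM in the Cort samples, and 222 CPM in the vehicle sample C05. Gabpa likewise had 133 and 134 CPM in the vehicle samples left out, beside 139 ± 57.9 CPM in the kept Cort samples. Of 14 tricarboxylic acid cycle genes none was called or reached P below 0.05, and Cs, citrate synthase, had log2 fold changes of −0.25 (SE 0.17) and 0.53 (SE 0.35).

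The nuclear members have long been tied together by motifs in their promoters, chiefly that of NRF-1, a regulator of respiratory genes. RefSeq promoters (GRCm38.p6), from 250 bases before to 50 after the start, were found for 69 of the 84 nuclear members. The NRF-1 letters, which are GCGCA and GCGC with 1 base of any kind between them, on either strand, occurred in 17 of them (24.6%), compared with 5.19% of all 27025 genes and 11.4% of the 9801 genes tested here. Letters of the ETS motif of Gabpa, ACCGGAAG, occurred in 6 (8.70%), compared with 2.60% and 5.09%. The general promoter letters CCAAT occurred in 44.9% of members, 41.1% of all genes and 42.7% of the genes tested here. GGGCGG, the GC box, occurred in 40.6% of members, 38.2% of all genes and 69.5% of the genes tested here. The full glucocorticoid response element, AGAACA and TGTTCT with 3 bases of any kind between them, was found in 0 of the 69 members and in 0.011% of all genes.

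The most NRF-1 matches in a single promoter were those of Sdha and Ndufb4, a membrane arm subunit of complex I, with 3 each. The 200 bases before their starts (chr13:74350241-74350440 and chr16:37654369-37654568, minus strand) are printed with these matches in capitals.
Sdha: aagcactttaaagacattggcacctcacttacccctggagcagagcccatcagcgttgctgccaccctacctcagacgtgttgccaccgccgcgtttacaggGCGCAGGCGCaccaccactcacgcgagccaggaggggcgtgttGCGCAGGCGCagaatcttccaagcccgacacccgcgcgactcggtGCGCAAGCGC
Ndufb4: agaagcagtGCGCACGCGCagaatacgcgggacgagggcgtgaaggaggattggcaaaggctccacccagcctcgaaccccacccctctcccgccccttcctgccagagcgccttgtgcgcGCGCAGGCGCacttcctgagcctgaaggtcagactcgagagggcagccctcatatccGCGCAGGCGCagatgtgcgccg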

How the data were processed

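RNA-seq was performed on laser-captured ARC (20 samples). Per the study's methods, 50 base single-end reads were aligned by Rsubread (GRCm38) and summarised per gene by featureCounts. The authors deposited these raw counts for 10 samples in each of 2 datasets. The annotation release, and how strand and reads with several matches were handled, are not given in the sources used here. The authors' DESeq2 tables were used only for gene symbols. Their normalized values, fold changes and p-values were not used. Groups and the samples left out followed the study's sample list and its principal component legend; nothing states a batch within a dataset. Since nothing used here says that each sample was a separate mouse, p-values measure the spread between samples.

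Counts were filtered with edgeR 4.0.16 (filterByExpr), scaled by TMM and tested with the quasi-likelihood F test of that package, with Benjamini-Hochberg adjustment over all genes tested (R 4.3.3). Each standard error is the log2 fold change divided by the root of F. Calls used the study's Padj below 0.1, with P below 0.01 beside it. CPM were scaled by TMM over all 10 samples of a dataset. At most 3 counts was treated as the floor. Stretches of 50 bases were matched to GENCODE M21 transcripts, on GRCm38. Tests were tested on simulated data. Alternatives were DESeq2 1.42.0, limma 3.58.1, other scaling and filters, all 10 samples and leaving out each sample.

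The members and lists were chosen with earlier results of these data known. All mitochondrial members were named, nuclear members with P below 0.01, the 3 highest and 3 lowest log2 fold changes per dataset, the highest level per length of each complex, and alternative subunit forms; list genes with P below 0.01 and Ppargc1a, Tfam, Cycs and Cs. Gabpa, and Ndufb4 as a printed promoter, were named after their values were seen. Cell type marker genes are not members and are given by list.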

Additional observations from a re-analysis of the deposited data

Results flagged for a closer look

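Groups of 4 or 5 samples were examined for a sample far from the others, 84 groupings in all over the shares of counts, their ratio, the 7 readable mitochondrial members and Atp5j2, Ndufb9, Ndufb10 and Atp5g1. Chance marks about 1 in 20 such groups, and 3 were marked here. The nuclear share of counts in the 2 day Cort sample C10 was 1.20%, while the other 3 kept Cort samples had 1.40% to 1.42%. The level of mt-Cytb in the 4 week Cort sample C07 was 18224 CPM, while the other Cort samples had 22262 to 22955 CPM, and C07 stood apart both among all 5 and among the 4 kept Cort samples. By edgeR no member passed the test of a difference in the response to Cort between the 2 datasets, and DESeq2 called Atp5j2.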

How the results depend on the processing

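No paired analysis was possible because the library columns carry no replicate number. At 2 days the number of members called was 0 under every alternative run. At 4 weeks it was 1 by edgeR, 0 with DESeq2, 0 with upper quartile scaling, 0 with all 10 samples, 3 with voom quality weights over all 10 samples and 0 to 6 when each sample was left out in turn. For mt-Co1 the 4 week log2 fold change was above 0 under all 14 alternatives, from 0.10 to 0.40, but its Padj was above 0.1 with DESeq2, upper quartile scaling, no filter, a minimum of 10 counts throughout, the full set of 10 samples, and without each kept sample except C07. With no filter (Padj = 0.036) and with at least 10 counts (Padj = 0.048) the gene called was mt-Nd2 instead. With all 10 samples the median log2 fold change moved to 0.12 for mitochondrial members at 4 weeks, 0.058 for nuclear members at 4 weeks and −0.052 for nuclear members at 2 days; the cause was not tested. When each sample was left out in turn, the medians ran from 0.27 to 0.40 (mitochondrial) and −0.14 to 0.03 (nuclear) at 4 weeks, and from 0.02 to 0.21 and 0.05 to 0.21 at 2 days. For the interaction DESeq2 called 1 member and every other alternative 0. The median over the 7 readable members, a choice made after seeing the data, was 0.13 at 2 days and 0.36 at 4 weeks. Total counts of the samples kept went down to 2487063 at 2 days and 1837715 at 4 weeks, which limits the precision of low nuclear members.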
